A study of Mus musculus with 6 samples.

Results

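At 165 mouse protein-coding genes, every assigned genotype-specific region of open chromatin came from the control genotype, and the 357 peaks of these genes are described here as the cWT-only loci. ATAC-seq, an assay that reads open chromatin from where a transposase can cut and tag the DNA, was run on microglia, the resident macrophages of the brain. The sorted cells came from C57BL/6J mice that were 8 weeks old. The conditional knockout (cKO, Mir137loxP/loxP;Tmem119-CreERT2) had 3 libraries, and the control (cWT, Mir137+/+;Tmem119-CreERT2) had 3 libraries, 6 in all, each made from about 50000 cells. Both genotypes carried the tamoxifen-inducible recombinase driven from Tmem119, a marker gene of homeostatic microglia, so the recombinase is made in cells that express that gene. Both were given tamoxifen on 7 days in a row, begun at 7 to 8 weeks of age. The labels state n = 4 mice without tying animals to libraries. The deposited values were 1 list of specific peaks per genotype, with no value per library, so neither the spread between replicates nor the sequencing depth could be measured. No difference below was tested, and the exact (Clopper-Pearson) 95% intervals cover counting error over peaks or genes, not variation between animals.

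The loci were chosen from both lists. Each peak was assigned by its midpoint to whichever coding gene had its end closest, up to 100 kb away, and a gene was taken when it had 0 cKO-specific and at least 2 cWT-specific peaks. This held for 165 of 21896 coding genes, or 0.754%. Their 357 peaks were 10.2% of the 3490 cWT-specific peaks in all, and 11.5% of the 3114 that could be assigned. The mirror rule, at least 2 cKO-specific and 0 cWT-specific peaks, held for 1113 genes (5.08%) with 2781 peaks, called the cKO-only loci. Among the 487 genes with at least 2 cWT-specific peaks, 33.9% had 0 cKO-specific peaks. Among the 1783 genes with at least 2 cKO-specific peaks, 62.4% had 0 cWT-specific peaks. The cKO list was longer, with 8615 peaks. These counts chose the loci and are given as a description.

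Most of the genes sat at the edge of the rule. Of the 165 genes, 142 had 2 cWT-specific peaks, 19 had 3, and 4 had 4. Just outside it stood 1032 genes with 0 cKO-specific and 1 cWT-specific peak, 92 genes with 1 and 2, and 27 genes with 1 cKO-specific and at least 3 cWT-specific peaks. Of those 27, Cyria, Dhrs3, Gm1966, Man1a2, Wwp2 and Zcchc24 had 4 cWT-specific peaks each. The 21 with 3 included Rbpj, the DNA-binding effector of Notch signalling, Bcl11a, a zinc finger repressor, Npc2, a lysosomal cholesterol carrier, Hk2, a hexokinase, Adcy7, an adenylyl cyclase, and Swap70 and Sla, adaptors of immune cell signalling. The others were Ablim3, Atp10a, Cab39, Fbrsl1, Fer, Klhl3, LOC115489489, Ptpn14, Rbms1, Scml4, Slc6a17, St6galnac5, Tbc1d30 and Tmem243. In all, 203 genes had at least 2 specific peaks of each genotype.

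**Figure D1:**
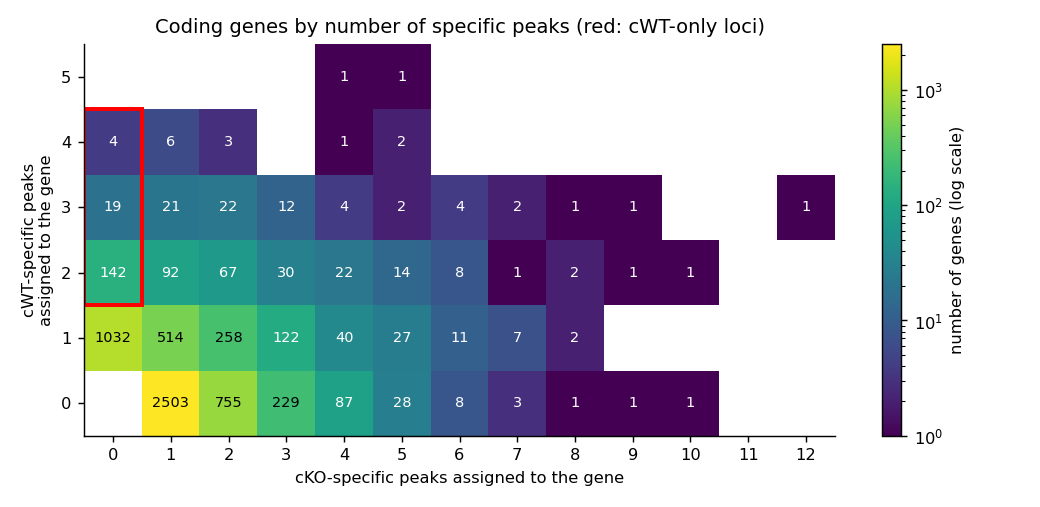
Coding genes by the number of cKO-specific (horizontal axis) and cWT-specific (vertical axis) peaks assigned to them; the number in each cell and its colour (log scale) give the count of genes, and genes with no peak are left out. The outlined column at 0 cKO-specific peaks holds the 142, 19 and 4 genes of the cWT-only loci, above 1032 genes with a lone cWT-specific peak.

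Open chromatin marks promoters and distal regulatory elements, and in microglia such elements are bound by the macrophage factor PU.1 together with IRF, RUNX, AP-1 and other factors. A microRNA acts after transcription: bases 2 to 8 of its mature strand, the seed, pair with target messenger RNAs and lower their stability or translation. Transcription factors and chromatin enzymes are among the known targets of microRNAs. A peak near a gene is not shown to regulate that gene. The mature strands of the deleted microRNA are given below with the seed in capitals, from RefSeq on GRCm38.p6.
mmu-miR-137-5p (chr3:118433865-118433887, plus strand): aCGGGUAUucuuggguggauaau
mmu-miR-137-3p (chr3:118433901-118433923, plus strand): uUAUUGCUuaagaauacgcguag

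The Mir137 hairpin gene spans 118433857 to 118433929 on chromosome 3. The closest cKO-specific peak lay 1281137 bp from it and the closest cWT-specific peak 994734 bp from it, so the lists hold no measure of the deletion. The closest peak of the cWT-only loci was 3609221 bp from Mir137 and 149947 bp from Tmem119. At Tmem119 the closest cKO-specific peak was 0 bp from the gene and the closest cWT-specific peak 54135 bp. Of 10 marker genes of microglia, 7 had an assigned cKO-specific peak, against 22.5% of all coding genes, and 2 an assigned cWT-specific peak, against 11.4%. Cx3cr1, Csf1r and Olfml3 had none in either list, which holds specific peaks only and does not show that these genes were closed. The 25 markers of other macrophages, neurons, astrocytes, oligodendrocytes, vascular cells and lymphocytes also exceeded the shares of all coding genes. Of these 25, 14 had an assigned cKO-specific peak and 7 an assigned cWT-specific peak. None of the 10 microglial markers was a cWT-only locus, and of the 25 others 0 were. Both counts are near the background of 0.754%.

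Promoters were a small share of the cWT-only loci. RefSeq windows from 250 bases before to 50 after an annotated start were at hand for 126 of 158 genes on the chromosomes searched. Of the 343 peaks there, 28 (8.16%, interval 5.49 to 11.6%) overlapped a window of any gene, against 10.2% (9.10 to 11.4%) of the other assigned cWT-specific peaks and 5.41% (4.59 to 6.33%) of the peaks of cKO-only loci. In 17 of the 28 the window belonged to the assigned gene itself. In 11 it belonged only to genes outside the coding set, among them peaks assigned to Ctsl, Dll1, Egr2 and Hmgb1. The 16 genes with their own promoter window overlapped, in part or in full, were Ace, Agtpbp1, Cmklr1, Cped1, Disp1, Hdc, Id4, Kcnt2, Mpzl1, Pawr, Ptprg, Qrfprl, Scrn1, Tlr5, Tor4a and Tspan4. The 250 upstream bases of 6 of them follow, 5′ to 3′ on the gene's strand, from RefSeq on GRCm38.p6. Mpzl1 has the highest authors' score among the 357 peaks, Cped1 is the locus with 4 peaks whose promoter was covered, and Id4 is on a list of cell type genes. Tspan4, Cmklr1 and Kcnt2 were picked after their values were seen, because they hold a searched motif inside the peak; capitals mark the PU.1 core GAGGAA, the RUNX core TGTGGT or the E-box CACGTG on either strand. In Cmklr1 the E-box lies before the PU.1 core, in Kcnt2 the capitals are the RUNX core read on the other strand, and in Tspan4 they are the E-box.
Mpzl1 (chr1:165634542-165634791, minus strand): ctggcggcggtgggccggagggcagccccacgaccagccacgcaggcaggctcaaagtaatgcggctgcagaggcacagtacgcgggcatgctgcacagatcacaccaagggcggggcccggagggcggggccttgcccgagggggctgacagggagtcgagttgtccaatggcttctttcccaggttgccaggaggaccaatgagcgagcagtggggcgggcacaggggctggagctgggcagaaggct
Cped1 (chr6:21985660-21985909, plus strand): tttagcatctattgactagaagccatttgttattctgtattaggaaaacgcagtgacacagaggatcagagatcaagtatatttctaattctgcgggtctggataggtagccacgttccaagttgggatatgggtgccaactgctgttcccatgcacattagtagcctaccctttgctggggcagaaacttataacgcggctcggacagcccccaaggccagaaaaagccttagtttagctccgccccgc
Id4 (chr13:48260866-48261115, plus strand): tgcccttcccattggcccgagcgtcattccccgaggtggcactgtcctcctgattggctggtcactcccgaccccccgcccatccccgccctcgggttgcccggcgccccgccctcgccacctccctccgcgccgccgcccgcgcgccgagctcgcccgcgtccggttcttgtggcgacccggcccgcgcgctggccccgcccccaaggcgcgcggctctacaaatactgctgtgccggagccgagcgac
Cmklr1 (chr5:113643604-113643853, minus strand): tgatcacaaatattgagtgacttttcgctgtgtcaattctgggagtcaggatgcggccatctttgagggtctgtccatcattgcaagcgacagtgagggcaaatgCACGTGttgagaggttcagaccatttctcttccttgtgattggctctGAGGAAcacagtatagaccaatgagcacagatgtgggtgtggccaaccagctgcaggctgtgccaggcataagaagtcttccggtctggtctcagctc
Kcnt2 (chr1:140245468-140245717, plus strand): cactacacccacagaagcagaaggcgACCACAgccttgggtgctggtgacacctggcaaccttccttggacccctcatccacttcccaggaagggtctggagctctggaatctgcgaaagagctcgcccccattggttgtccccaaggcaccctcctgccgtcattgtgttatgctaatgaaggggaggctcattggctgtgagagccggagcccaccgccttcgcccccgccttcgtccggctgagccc
Tspan4 (chr7:141476130-141476379, plus strand): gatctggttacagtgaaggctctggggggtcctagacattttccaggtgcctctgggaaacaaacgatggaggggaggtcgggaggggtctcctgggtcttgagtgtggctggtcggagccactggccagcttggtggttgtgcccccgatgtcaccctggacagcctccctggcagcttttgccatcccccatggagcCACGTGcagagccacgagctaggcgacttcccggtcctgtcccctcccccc

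The cWT-specific peaks covered 250 of these upstream bases in Mpzl1, Id4 and Kcnt2, 245 in Cped1, 179 in Cmklr1 and 143 in Tspan4. In Cmklr1, the chemerin receptor gene, and Tspan4, a tetraspanin gene, the covered start lies inside the gene's span, so the peak counts as gene interior. The 16 genes had 17 overlapped promoter windows of their own, since Ace, the angiotensin-converting enzyme gene, had 2. The overlap could be small, with 19 of the 250 upstream bases under the peak in an Ace window. The E-box CACGTG occurred in 2 of the 17 (11.8%, against 6.02% of all 32851 windows) and the PU.1 core GAGGAA in 5 (29.4%, against 23.3%). Only in Cmklr1 did the PU.1 core lie under the peak. In Ace, Agtpbp1, Scrn1 and Tor4a it lay outside the peak. The RUNX core TGTGGT occurred in 1 (5.88%, against 14.0%). The AP-1 motif TGANTCA and the IRF motif GAAANNGAA were found in 0 of the 17, against 6.75% and 7.13% of all windows. Each motif was searched on both strands in the upstream bases, and a match describes the letters only. The shares rest on so few windows that 1 window moves them by 5.88 percentage points. The upstream bases of the 17 windows had a median GC content of 61.6% (48 to 80.8%), against 52.4% in all windows.

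Most peaks of the cWT-only loci lay away from the ends of genes. Only 49 of 357 (13.7%, interval 10.3 to 17.7%) had their midpoint within 1000 bp of either end of a coding gene, against 18.3% (16.9 to 19.8%) of the 2757 other assigned cWT-specific peaks and 11.9% (10.8 to 13.2%) of the peaks of cKO-only loci. Gene interiors held 191 (53.5%), against 49.6% and 54.8% in these 2 sets, and intergenic stretches held 117 (32.8%), against 32.1% and 33.2%. The interval of the gene-end share overlaps those of both other sets. Of the 357 midpoints, 199 fell inside the assigned gene and 24 inside another coding gene. By gene, 66 of the 165 had all their peaks inside their own span, 48 had none there, 39 had all their peaks outside every coding gene, and 8 had all of them inside a neighbour. The gene table gives no exons, so exon, intron and untranslated parts were not told apart.

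By the median, the peaks were narrower than the other assigned cWT-specific peaks and lay farther from gene ends. Their median width was 294 bp (134 to 818 bp), against 324 bp for the other assigned cWT-specific peaks and 296 bp for the cKO-only loci. At gene ends the median was 294 bp in the cWT-only loci (49 peaks) and 371 bp in the other assigned cWT-specific peaks. In gene interiors it was 279 against 315 bp. Intergenic peaks went the other way, with 321 bp in the cWT-only loci (117 peaks) against 312 bp. The median distance to the assigned gene end was 16794 bp, against 10781 bp in the other assigned cWT-specific peaks and 11636 bp in the cKO-only loci. The genes were also longer: the median gene length was 59672 bp in the cWT-only loci, 44107 bp in other genes with a cWT-specific peak, 41363 bp in cKO-only genes and 17149 bp over all coding genes. How much of the distance and position differences goes with gene length was not tested.

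**Figure D2:**
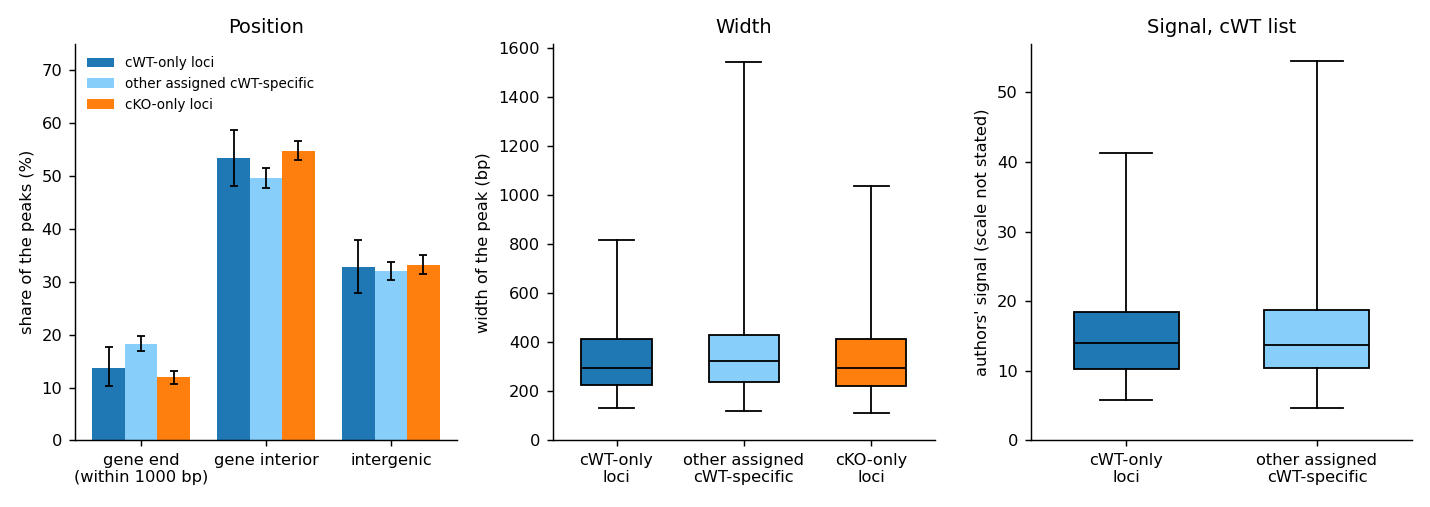
Left, share of peaks by position with exact 95% intervals; middle, peak width in bp; right, the authors' signal, whose scale is not stated, for the cWT list alone. Boxes span the quartiles with the median as a line, and whiskers reach the lowest and highest peak. The cWT-only loci have 13.7% of peaks at gene ends, below the 18.3% of other cWT-specific peaks, and a nearly equal median signal, 14.0 against 13.7.

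Within the cWT list, the authors' values placed these peaks near the middle. The median signal was 14.0 (5.84 to 41.2) in the cWT-only loci and 13.7 in the other assigned cWT-specific peaks. The deposited p-value, whose test no source used here gives, had medians of 0.879 in the cWT-only loci and 0.884 in the others. It was at most 0.5 in 16 peaks of the cWT-only loci (4.48%), against 6.53% of the others, and 5 (1.40%) carried the name primary, against 1.45%. None of the 357 had a deposited adjusted p-value under 0.05, the lowest being 0.242. The count was also 0 among all peaks of each list. With the test not stated and no value per library, no single peak below is called changed between the genotypes. The libraries are bulk samples, in which fewer cells with an open site and less accessibility per cell cannot be told apart.

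The peaks of a locus often followed each other directly. Peak names carry numbers that climb with position on every chromosome. They were read as an order within all peaks called for the genotype, at least 28747 of them in cWT. In 102 of the 165 genes (61.8%, interval 53.9 to 69.3%) the specific peaks had consecutive numbers, with no other numbered cWT peak between them, against 561 of 1113 cKO-only genes (50.4%, 47.4 to 53.4%). Among genes with exactly 2 peaks the shares were 64.1% (55.6 to 72.0%) in the cWT-only set and 61.5% (57.9 to 64.9%) in the cKO-only set, and genes with 3 or more peaks were 23 of 165 in the cWT-only set and 358 of 1113 in the cKO-only set. The stretch from the first to the last peak had a median of 29269 bp, against 19535 bp in cKO-only genes. Among genes with exactly 2 peaks it was 22396 bp, against 11885 bp. It exceeded 100 kb in 26 genes (15.8%), against 9.52%, and was under 2 kb in 27 (16.4%), against 17.3%.

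**Figure D3:**
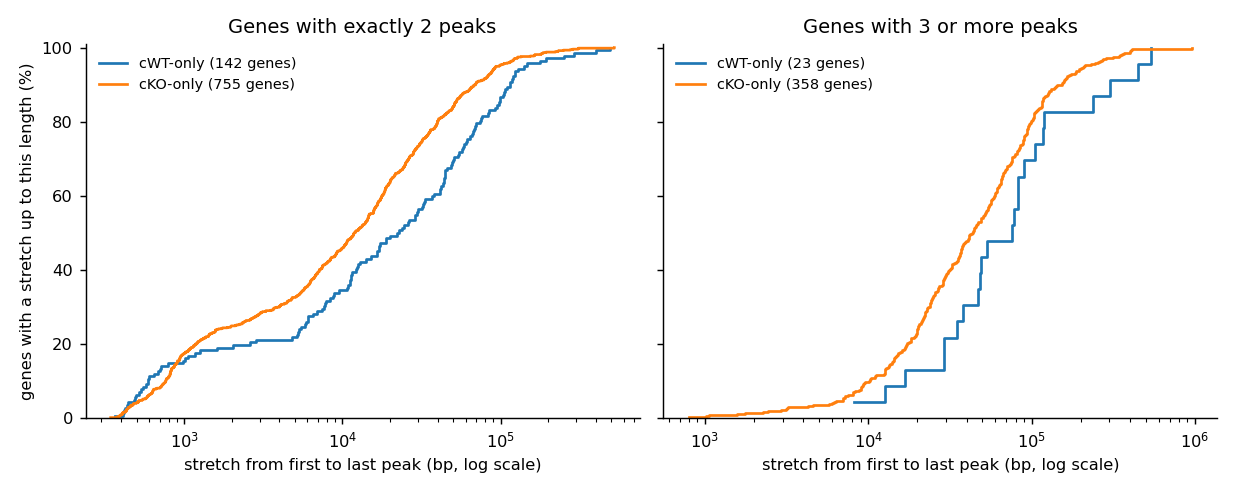
Cumulative share of genes (vertical axis, %) by the length from their first to their last specific peak (horizontal axis, bp, log scale), for genes with exactly 2 peaks (left) and with 3 or more (right). The line of the cWT-only genes lies to the right of the cKO-only line over most of its course, with medians of 22396 and 11885 bp among genes with 2 peaks.

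Some of these counts may overstate the number of separate regions. In 25 pairs, neighbouring peaks of 1 gene touched end to start, and all 25 pairs carried the same signal. A further 3 pairs had the same signal without touching, at most 174 bp apart. In 20 of the 142 genes with 2 peaks both peaks shared 1 signal value, so the locus may hold a lone region. With peaks within 500 bp merged, 139 of the 165 genes still met the rule.

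The lists do not show whether cKO peaks shared with cWT lay at these loci. None of the 357 peaks overlapped a cKO-specific peak, and the gap to the nearest was 150861 bp in the median, with 4 peaks within 10 kb and 239 beyond 100 kb. The rule drops genes with an assigned cKO-specific peak, so these values follow in part from the choice of the loci. Between the cKO-specific peaks that flank each locus, the cKO numbering skipped 1 to 36 numbers, with a median of 8 over a median interval of 747898 bp, in all 164 genes with a flank on both sides. Read as an order of called peaks, these numbers stand for cKO peaks not listed as specific, but they do not place any of them at the locus, and those peaks are not analysed here. Since the assignment stops 100 kb from a gene end, long genes could also hold unassigned cKO-specific peaks: 11 of the 165 genes contained 16 cKO-specific midpoints. These were Foxp1, Pid1, Tns3, Cpeb3 and Kifc3 with 2 each, and Smyd3, Col25a1, Knop1, Ltbp1, Nedd4l and Txnrd2 with 1 each. Within 100 kb of the gene's span, 76 genes had a cKO-specific midpoint and 89 had none.

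Transcription factor genes included the locus with the widest spread of peaks among those with 4. Foxp1, a forkhead factor of immune and neuronal development, had 4 assigned cWT-specific peaks on chromosome 6. They lay at 98985532 to 98985853 (signal 16.0), 99485746 to 99486141 (8.35), 99502157 to 99502610 (14.1) and 99522030 to 99522323 (10.7). The first lay 60350 bp inside 1 end of the gene, and the last 570 bp from the other. Deep in the gene, 262371 and 274089 bp from its nearest end, lay the 2 cKO-specific peaks that the rule did not assign, at 99187614 to 99187813 and 99199306 to 99199557. In total 2 cKO-specific and 9 cWT-specific midpoints fell in the Foxp1 span, so Foxp1 is a locus of mainly, not solely, cWT-specific peaks.

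The other transcription factor genes had fewer peaks. Tshz2, a teashirt zinc finger gene, had 3 on chromosome 2, at 169700199 to 169700514 (signal 16.0), 169987685 to 169988034 (19.2) and 170002535 to 170002978 (14.3). All 3 lay inside the gene, 67847 to 84892 bp from an end, while 5 cKO-specific peaks lay within 100 kb beyond 1 end of it. Pparg, a nuclear receptor of lipid metabolism, had 2 inside the gene on chromosome 6, at 115480007 to 115480618 (18.8) and 115485679 to 115486105 (11.04). Id4, an inhibitor of basic helix-loop-helix factors that is also an astrocyte gene, had 1 at its promoter on chromosome 13, 48260798 to 48261160 (14.8), and 1 at 33234 bp from the gene (11.9). Chosen after their values were seen, Egr2, an immediate-early zinc finger gene that also acts in macrophages, had 1 peak inside the gene at 67536062 to 67536287 on chromosome 10, with an authors' score of 216. Meis1, a homeobox gene, and Klf15, a Kruppel-like factor gene, each had both peaks inside the gene. Pou2f2 and Max, the gene of the MYC dimerization partner, had 1 peak inside and 1 outside each.

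Among genes of chromatin, RNA and translation control, Smyd3, a lysine methyltransferase gene, had 4 peaks on chromosome 1, at 178988712 to 178988959 (signal 7.70), 178989366 to 178989761 (10.2), 179010568 to 179010918 (9.34) and 179435114 to 179435312 (26.5). Of these, 3 lay 36875 to 58783 bp from 1 end of the gene and 1 lay 82840 bp from the other. A cKO-specific peak, 179162997 to 179163388, lay inside Smyd3 between them, 211232 bp from the nearest gene end and therefore not assigned. Hmgb1, which encodes a nucleosome-binding protein that is also released as an alarm signal, had 3 peaks on chromosome 5, all outside the gene: 149015673 to 149016007 (9.37) on 1 side and the touching pair 149067729 to 149068260 and 149068261 to 149068702 (both 23.6) on the other. The first overlapped the promoter window of Gm15411, and 1 peak of the pair that of Gm30078, genes outside the coding set. With all annotated genes used in the assignment, 0 peaks went to Hmgb1. Mbnl1, a splicing regulator gene, had an intergenic peak at chromosome 3, 60408973 to 60409390, with a signal of 38.2. Its other 2 peaks, inside the gene, had signals of 8.29 and 7.14. Cpeb3, whose product binds cytoplasmic polyadenylation elements, had 3 peaks inside the gene on chromosome 19, from 37024915 to 37059855, with signals of 9.39, 10.8 and 14.7. Elsewhere in its span lay 2 cKO-specific peaks that were assigned to Marchf5. Bend5, a BEN domain gene, had a touching pair at chromosome 4, 111455402 to 111455832 (both 18.98), and 1 peak in Agbl4, whose span also holds the pair. Stau2, a double-stranded RNA-binding protein gene, had its 2 peaks 289949 bp apart, 1 near each end.

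**Figure D4:**
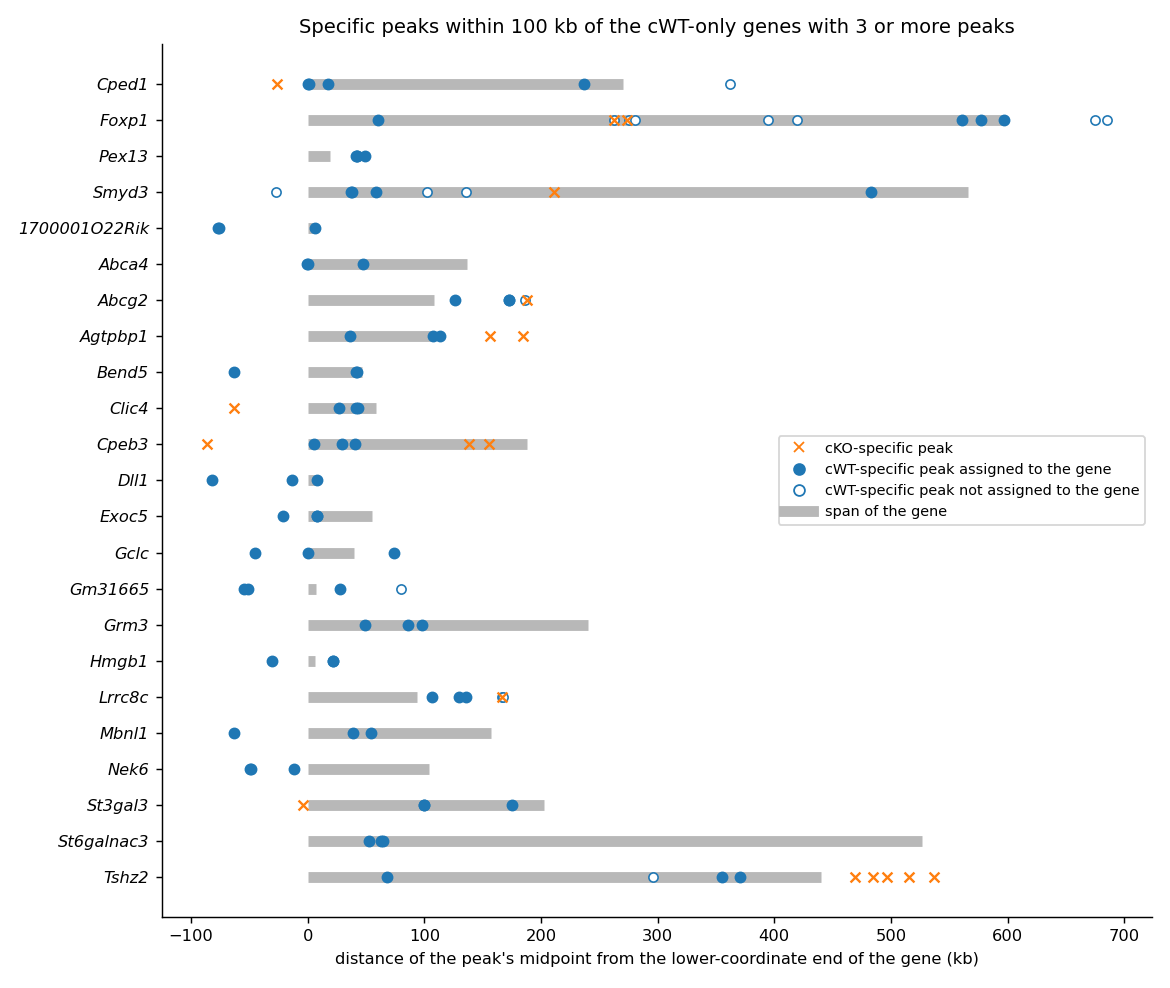
Specific peaks in and within 100 kb of the 23 genes of the cWT-only loci with 3 or more peaks; grey bars are gene spans and the horizontal axis is distance in kb from the lower-coordinate end. Crosses are cKO-specific peaks, filled circles cWT-specific peaks assigned to the gene, and open circles cWT-specific peaks assigned elsewhere or nowhere. Crosses fall inside the bars of Foxp1, Smyd3 and Cpeb3, and 13 of the 23 genes have no cKO-specific midpoint in the range drawn.

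Among genes of signalling proteins, Dll1, a Notch ligand gene, had 3 peaks of low signal on chromosome 17, at 15285530 to 15285729 (7.98), 15353322 to 15353512 (8.55) and 15375098 to 15375307 (8.30), of which the last lay inside the gene. Tgfb2, the gene of a TGF-beta ligand, had 2 peaks inside it on chromosome 1, 1346 bp apart (7.82 and 12.5). Of 28 genes of TGF-beta and BMP ligands, growth differentiation factors and latent TGF-beta binding proteins, 4 met the rule (Bmp2, Ltbp1, Ltbp2 and Tgfb2), which is 14.3% against 0.754% of all coding genes, but this family was picked after its values were seen. The Ltbp1 peaks lay outside the gene's span, 401382 bp apart, with a cKO-specific peak inside the span at 75119472 to 75119851 on chromosome 17. Grm3, a metabotropic glutamate receptor gene, had 3 peaks inside the gene on chromosome 5, from 9534389 to 9583573, with signals of 13.2, 14.0 and 11.4. Nek6, a mitotic kinase gene, had 3 intergenic peaks on chromosome 2 (14.5, 8.97 and 11.2), 11964 to 49809 bp from the gene.

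The highest-scored of the 357 peaks lay at a cell-surface gene. Mpzl1, which encodes a cell-surface glycoprotein that binds the phosphatase SHP2, had a peak across its promoter on chromosome 1, 165634189 to 165634837, with a signal of 41.2, a score of 864 and a deposited p-value of 0.00830. Its other peak, 16102 bp into the gene, had a signal of 9.86. Gpr180 (118137453 to 118137667 on chromosome 14, score 298) and Tor4a, a torsin ATPase gene (25196670 to 25196944 on chromosome 2, score 199), followed among the gene-end peaks of genes with 2 peaks. Ptprg, a receptor tyrosine phosphatase gene, had a touching pair at its promoter on chromosome 14, 11553382 to 11553970 (both 16.8). Gpr20, an orphan receptor gene, and Ncald, a calcium sensor gene, likewise had touching pairs at a gene end, with signals of 16.9 and 13.5. Car13, a carbonic anhydrase gene, Cobll1, Stimate, which encodes an endoplasmic reticulum protein, and Qrfprl completed the 10 such genes of highest score, with scores of 70, 66, 49 and 42. Tlr5, the flagellin receptor gene, was noticed after its values were seen: 1 peak covered 117 of the 250 bases before its start, at 182954671 to 182955062 on chromosome 1, with a signal of 24.0.

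Among genes of sialyltransferases, which add sialic acid to glycans, St3gal3 had 3 peaks inside the gene on chromosome 4, of which the 2 at 118031331 to 118031575 and 118031750 to 118031981 shared a signal of 23.4 and the third had 18.4. St6galnac3 had 3 inside the gene on chromosome 3, from 153250651 to 153263236, with signals of 18.1, 9.75 and 15.2. St3gal1 had 2 inside the gene on chromosome 15, 1198 bp apart, the second at 67174583 to 67174801 with a score of 291. These 3 are 15% of 20 sialyltransferase genes, against 0.754% of all coding genes, and 2 of the 20 (10%) were cKO-only loci, against 5.08%; this family too was chosen after its values were seen. Abca4, an ABC transporter gene known from the retina, had 2 peaks 161 bp apart just outside 1 end (both 17.9) and 1 inside the gene at chromosome 3, 122090483 to 122091202 (13.7). Abcg2, a multidrug efflux transporter gene, had 3 intergenic peaks on chromosome 6, of which the touching pair at 58756461 to 58757148 had a signal of 23.6. Clic4, an intracellular chloride channel gene, had 3 inside the gene on chromosome 4 (10.95, 10.3 and 9.51), and Lrrc8c, a subunit gene of the volume-regulated anion channel, had 3 beyond 1 end on chromosome 5 (8.62, 13.5 and 17.5).

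Among genes of metabolism, organelles and vesicle traffic, Gclc, the catalytic subunit gene of the rate-limiting enzyme of glutathione synthesis, had 3 peaks on chromosome 9. They were 77709004 to 77709306 (signal 21.2) and 77828374 to 77828997 (33.8) on its 2 sides, and 77754520 to 77754891 (11.1) at a gene end, 170 bp from it. The second of these had a score of 475 and a deposited p-value of 0.0715. Pex13, a peroxisome import gene, had 4 consecutive peaks, all of them inside the neighbouring gene Pus10, which encodes a pseudouridine synthase, on chromosome 11 and 22257 to 30145 bp from Pex13. Their signals were 8.75, 9.34, 9.12 and 17.8. Cped1, which encodes a protein with a cadherin-like and an esterase domain, had 4 consecutive peaks on chromosome 6, of which the touching pair 21985665 to 21986232 and 21986233 to 21986486 at its promoter shared a signal of 38.3. Those at 22003038 to 22003306 and 22222187 to 22222506 had signals of 10.1 and 10.8.

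Ctsl, a lysosomal protease gene, had a touching pair outside the gene on chromosome 13, 64343729 to 64344521 (both 19.8), that may be 1 region. The first peak of the pair covered all 250 upstream bases of Gm31128, a gene outside the coding set. Exoc5, an exocyst subunit gene, had a touching pair inside the gene on chromosome 14 (both 21.0) and an intergenic peak (17.4). Agtpbp1, a tubulin deglutamylase gene, had 3 peaks on chromosome 13, with signals of 10.5, 8.87 and 21.3, of which 1 covered part of its promoter. Gm31665 had 3 peaks, all in the neighbouring gene Trappc9 (17.99, 8.84 and 9.88), and 1700001O22Rik had a touching pair outside the gene (both 17.4) and 1 inside it (17.2). The closest pairs that did not touch were 124 bp apart at Slc38a6, 199 at Hfe, 241 at Armcx2, 278 at Tspan4, 292 at Gnat3, 303 at Disp1, 489 at Glis3, 1198 at St3gal1, 1346 at Tgfb2 and 2186 at Tor4a. The widest spaces between 2 peaks were 491767 bp at Gmds, 401382 at Ltbp1, 289949 at Stau2, 251487 at Ccbe1 and 193906 at Carmil1.

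Of 474 coding genes on 23 lists of microglial pathways and cell types, 6 met the rule (1.27%, against 0.754% of all coding genes): Ctsl, Foxp1, Id4, Pex13, Pparg and Smyd3. The mirror rule held for 56 of the 474 (11.8%, against 5.08%). Of 24 homeostatic microglial genes, 0 were cWT-only and 6 cKO-only. The cWT-only loci also took 0 of 26 phagocytosis and complement genes, 0 of 19 antigen presentation genes, 0 of 25 Toll-like receptor or NF-kB genes, 0 of 24 cytokine and mediator genes and 0 of 23 JAK-STAT genes, where 4, 5, 4, 4 and 4 genes were cKO-only. Of 23 genes reported as miR-137 targets, 0 were cWT-only and 1 was cKO-only. Other lists with 0 cWT-only genes had 1 of 22 AP-1 and bZIP and 1 of 21 interferon response genes cKO-only. For cell cycle genes this was 2 of 24, and for neuron and lymphocyte genes 1 of 22 and 1 of 17. It was 2 of 15 for vascular, 3 of 16 for other macrophage and monocyte, and 0 of 16 for oligodendrocyte lineage genes. A count of 0 in lists of this size is near the background of 0.754% and is not a result about the list. Of 27 genes of disease-associated microglia, Ctsl was cWT-only, through a touching pair outside the gene, and 0 were cKO-only.

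Other listed genes missed the rule with 0 cKO-specific peaks and a lone cWT-specific peak. This count held for 32 of the 474 listed genes, against 1032 of all 21896 coding genes, and the difference was not tested. Lineage factor genes with this count included Elf1, Smad4 and Spi1, which encodes PU.1. Signalling genes with this count included Stat4, Socs2, Nfkbiz and Il12b, and metabolic genes Acsl1, Soat1, Hif1a and Glul. C1qc, Psmb9, Oasl2, Cst7, Mrc1, Ms4a7 and Pf4 were immune genes with it, and Atf6, Fosb, Foxj2 and Foxn2 further regulators. Ccne1, Mki67, Grin2a, Mib1, Gja1 and Vwf also had it.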

How the data were processed

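ATAC-seq peak lists of 3 cKO and 3 cWT libraries were analysed, 1 list of genotype-specific peaks per genotype, grouped by the sample titles. The submitters' processing notes name HOMER 4.11, MACS2 2.2.7.1 and Bowtie2 2.4.4, and the builds mm10 and GRCm38. The role of each tool, the treatment of replicates, any read shift for the transposase and the rule for specific peaks were not given in the sources used here. The lists have no header, and their columns were read by layout and values. In all 12105 peaks the deposited score is the log2 of the p-value multiplied by -125 and rounded down. The deposited signal is on a scale the authors do not state, so it was compared only within a list. What the deposited p-value tests is not stated, and sequencing depth is unknown.

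Peaks were assigned by midpoint to the RefSeq coding gene (GRCm38.p6) with the nearest end within 100 kb; 11013 of 12105 were assigned, to 6116 genes, and 376 cWT-specific peaks were not. Positions are 1-based on mm10. The assignment was tried on simulated data. No test was run, because no value per library exists and peaks are not replicates. The loci, gene lists and families were chosen with earlier results of these data known. Named genes were those with 3 or more peaks, those with 2 on the gene lists, the 10 genes with 2 peaks whose gene-end peak scored highest, the 10 whose 2 peaks lay closest without touching and the 5 whose 2 peaks lay farthest apart. Genes with 1 cKO-specific and at least 3 cWT-specific peaks, and listed genes with 0 cKO-specific and 1 cWT-specific peak, were also named. Genes named outside this rule are so described, and the results of some genes are not reported here. No genome sequence was used, so peak sequences are not printed, and the promoter table has no entry for chromosome 18, where 7 of the genes lie. Alternatives covered the distance limit, the assignment and its gene set, merging, score and p-value limits, overlap, the minimum number of peaks and nearby cKO-specific peaks. The software was scipy 1.17.1, pandas 2.3.3 and numpy 2.4.6 under Python 3.11.15, with matplotlib 3.10.9 for the figures.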

Additional observations from a re-analysis of the deposited data

How the results depend on the processing

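The set of genes depended strongly on how peaks were chosen and assigned, and the cause of the shifts was not tested. With an assignment limit of 10 kb, 57 genes with 116 peaks met the rule, with 36.2% of peaks at gene ends, 17.2% outside coding genes and 75.4% of genes with consecutive peaks; 37 of the 165 genes were among them. With only the peaks whose score reached their list's median there were 80 genes with 166 peaks, 42.2% outside coding genes, and 54 genes were shared. With p-values up to 0.5 there were 2 genes with 4 peaks, of median width 398.5 bp, 25% at gene ends, 25% outside coding genes and 50% of genes consecutive, and 0 genes were shared. A minimum of 3 peaks left 23 genes with 73 peaks, 9.59% at gene ends and 47.8% of genes consecutive. Without genes that have a cKO-specific midpoint within 100 kb, 89 genes with 192 peaks remained, 70.8% of them consecutive. With all annotated genes 72.9% of genes were consecutive, and 80 of the 165 genes were among the 181 found. Merging peaks within 500 bp gave a median width of 322 bp and kept 139 genes. A gene-end window of 3000 bp gave 22.1% at gene ends, and counting only peaks outside all annotated genes gave 21.8% outside. Assigning a peak first to the gene that holds it gave 169 genes, of which 145 were shared; Foxp1, Smyd3, Cpeb3, Pex13 and Gm31665 no longer met the rule, the first 3 because of cKO-specific peaks inside them and the last pair because their peaks went to the gene that holds them. Leaving out the 184 cWT-specific peaks that overlap a cKO-specific peak could not change the 165 genes, since none of their peaks is among the 184. That setting is therefore no check of the set.

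No paired analysis was possible because the lists hold no value per library, and for the same reason no result was computed with a library left out. Depth is unknown, so how it limits each count was not tested.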

Other observations

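The loci were spread over 20 chromosomes. Chromosome 2 held the most genes, 16 with 35 peaks, and chromosome 6 held 14 with 33 peaks, where 18.2% of the assigned cWT-specific peaks belonged to cWT-only loci against 11.5% over all chromosomes. Chromosome 16 held 1 gene with 2 peaks, 1.92% of its 104 assigned cWT-specific peaks, namely Txnrd2, the mitochondrial thioredoxin reductase gene, and chromosome X held Armcx2 alone.

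Further genes with 2 peaks were chosen after their values were seen. Atp6v0d2, a subunit gene of the lysosomal proton pump, had 1 peak inside it on chromosome 4, 19894678 to 19894924 (signal 16.5), and 1 outside (11.6). Picalm, a clathrin adaptor gene known from Alzheimer's disease genetics, had 2 peaks of low signal inside it on chromosome 7 (7.42 and 7.30). Rab31, a small GTPase gene of vesicle traffic, had 2 inside it on chromosome 17 (9.90 and 7.98), and Bcl2, a gene of a protein that blocks cell death, had 2 inside it on chromosome 1 (19.3 and 8.53). Slamf9 and Tnfrsf13b, immune receptor genes, had only intergenic peaks, 16511 to 34973 bp from the genes. Ell2, a transcription elongation factor gene, held the peak with the second highest score of all the loci, 517, at chromosome 13, 75708427 to 75708787, with a deposited p-value of 0.0568. By symbol family, 0 of 137 chemokine, interleukin and related receptor genes were cWT-only and 14 (10.2%) cKO-only, against 0.754% and 5.08% of all coding genes. Of 483 zinc finger genes 3 were cWT-only and 18 cKO-only, and of 346 solute carrier genes 2 were cWT-only and 23 cKO-only. No test was made of any of these differences.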
